A study of Homo sapiens with 9 samples.

Results

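The genes described here belong to the antioxidant response that the transcription factor NRF2 controls, with HMOX1 and NQO1 as its best known outputs. Of 10 listed genes, 9 were measured by 20 probe sets that carry that gene's symbol alone, out of 54675 probe sets on the array and 41091 with 1 gene symbol. FTH1, the heavy chain of the iron store ferritin, had 0 such probe sets and is not analysed here. The list was drawn up with earlier results of these arrays in view. The low HMOX1 value of the mimic arrays against mock and the low NQO1 value against the scrambled control headed that choice. Both genes are therefore described with no test, and the tests of the other 7 measured genes are not independent evidence of a response of the pathway.

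The cells were Hec50, an established human endometrial cancer line, so every result concerns 1 line. The study compared 3 groups of 3 arrays each: mock-transfected cells, cells given a scrambled negative control RNA, and cells given a synthetic mimic of the microRNA miR-200c. The scrambled control and the mimic were each applied at 60 nM for 48 h, and the labels give no dose or time for mock. Total RNA was hybridised to 1-colour Affymetrix arrays. The values used are log2 expression, centred by the authors so that the median of each probe set over the 9 arrays is 0. A value of 0.5 is thus 0.5 log2 units above that probe set's median, and the table shows differences between arrays but not levels.

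NRF2, encoded by NFE2L2, is held in the cytoplasm and marked for degradation by KEAP1, an adaptor of a CUL3 ubiquitin ligase that senses oxidants and electrophiles. When KEAP1 is modified, NRF2 accumulates, pairs with small MAF proteins and binds antioxidant response elements, where the repressor BACH1 competes for the same sites. The target genes make glutathione, reduce quinones and peroxides, and break down heme, and tumours with an overactive pathway tolerate oxidants and many drugs better.

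The microRNAs of the miR-200 family fall into 2 seed groups, and the mature sequences are shown because a published link between the family and this pathway, the targeting of KEAP1 mRNA by miR-200a, concerns the other seed than that of the mimic tested. Sequences are from RefSeq on GRCh38.p14, 5′ to 3′, and capitals mark the seed (bases 2 to 8). The gene of hsa-miR-200c-3p lies on the plus strand, with the mature sequence at chr12:6963742-6963764.
hsa-miR-200c-3p: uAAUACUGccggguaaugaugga
hsa-miR-200b-3p: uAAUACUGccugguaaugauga
hsa-miR-429: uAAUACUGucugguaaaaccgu
hsa-miR-200a-3p: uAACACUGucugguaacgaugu
hsa-miR-141-3p: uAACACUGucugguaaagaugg
The seed of miR-200c is that of miR-200b and miR-429. The seed of miR-200a and miR-141 differs from it by U4C, with positions counted from 1 at the 5′ end of the mature sequence and the base of miR-200c given first.

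Over all 19775 genes, limma called 2874 (14.5%) between mimic and scrambled control at a Benjamini-Hochberg adjusted p under 0.05. It called 3690 (18.7%) between mimic and mock and 1563 (7.9%) between scrambled control and mock. These comparisons share arrays, so no 2 of them are independent. CDH1, the epithelial cadherin whose repressors miR-200c is known to target, rose by 3.26 log2 units with the mimic against the scrambled control (SE 0.12, limma adjusted p = 1.03e-07). Of 13 measured endometrial and epithelial markers, 7 were in the level class of 8 or more on the log2 scale, KRT8, KRT18 and PAX8 among them. The other 6 were at 4 to 8, CDH1 and KRT19 among them. The level class is read from rounding in the stored numbers, as described with the processing. Of 10 measured leukocyte markers, 3 were below 4, among them PTPRC, and 2 were at 8 or more (ITGAM and LAPTM5). Of 11 endothelial and fibroblast markers, 2 were below 4, 7 at 4 to 8 and 2 at 8 or more (COL1A1 and COL1A2).

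HMOX1, the inducible heme oxygenase that cleaves heme to biliverdin, carbon monoxide and iron, was highest in mock cells, intermediate with the scrambled control and lowest with the mimic. Its probe set 203665_at, in the level class of 4 to 8, stood at 0.65, 0.54 and 0.99 in mock replicates 1, 2 and 3. It stood at -0.04, 0 and 0 with the scrambled control, and at -0.66, -0.71 and -1.09 with the mimic. The 3 groups do not overlap. The scrambled arrays are the tightest, but their replicates 2 and 3 both stand at exactly 0, the median of the probe set. Equal values at the median occur in other genes too, L3HYPDH among them. The small spread of the scrambled arrays is therefore not read as close agreement of replicates. The means were 0.73 ± 0.23 in mock, -0.01 ± 0.03 with the scrambled control and -0.82 ± 0.24 with the mimic (SD, n = 3). The mimic arrays were thus 2.93-fold lower than mock, a log2 difference of -1.55 (SE 0.12), which put HMOX1 at rank 3 from the lowest of 19775 genes. Roughly equal steps made up this difference: -0.74 (SE 0.12) from mock to the scrambled control and -0.81 (SE 0.12) from there to the mimic. In these bulk RNA samples, fewer cells that express a gene and less RNA of it per cell cannot be told apart. The ratio of the 3′ to the 5′ ACTB control probe set, a measure of RNA quality, also separated mock from the other groups. On the centred log2 scale it was -0.18 ± 0.03 in mock, 0.10 ± 0.04 with the scrambled control and 0.02 ± 0.08 with the mimic (SD, n = 3). The same ratio for GAPDH was 0.03 ± 0.04, 0.01 ± 0.02 and -0.02 ± 0.03 in that order. Its part in the differences from mock was not tested.

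NQO1, the quinone reductase that uses NADH or NADPH to turn quinones into hydroquinones, was lower with the mimic than in either control, and mock and the scrambled control lay close together. All 3 of its probe sets were in the level class of 8 or more. Probe set 201467_s_at was at 0.19, 0.09 and 0.10 in mock, at -0.02, 0 and 0.03 with the scrambled control, and at -0.29, -0.45 and -0.43 with the mimic. Probe set 201468_s_at was at 0, -0.01 and 0.08 in mock, at 0.05, 0.14 and 0.21 with the scrambled control, and at -0.22, -0.29 and -0.29 with the mimic. Probe set 210519_s_at was at 0.11, 0.05 and 0.08, then -0.02, 0 and 0.02, then -0.22, -0.36 and -0.35 in the same order of groups. On each of them every mimic array lies below every control array. The gene value, the mean of the 3 probe sets, differed by -0.37 (SE 0.05) between mimic and scrambled control and by -0.40 (SE 0.05) between mimic and mock, or 1.29-fold and 1.32-fold. Between scrambled control and mock it differed by -0.03 (SE 0.05), with a 95% interval from -0.14 to 0.08. The probe sets split in direction there, at -0.12, 0.11 and -0.08. On 201467_s_at and 210519_s_at every scrambled array lies below every mock array, a separation found in 14.1% of all probe sets. HMOX1 and NQO1 thus shared a low value with the mimic. The step from mock to the scrambled control was present in HMOX1 and within the error in the gene value of NQO1. The difference between those steps was not tested.

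**Figure D1:**
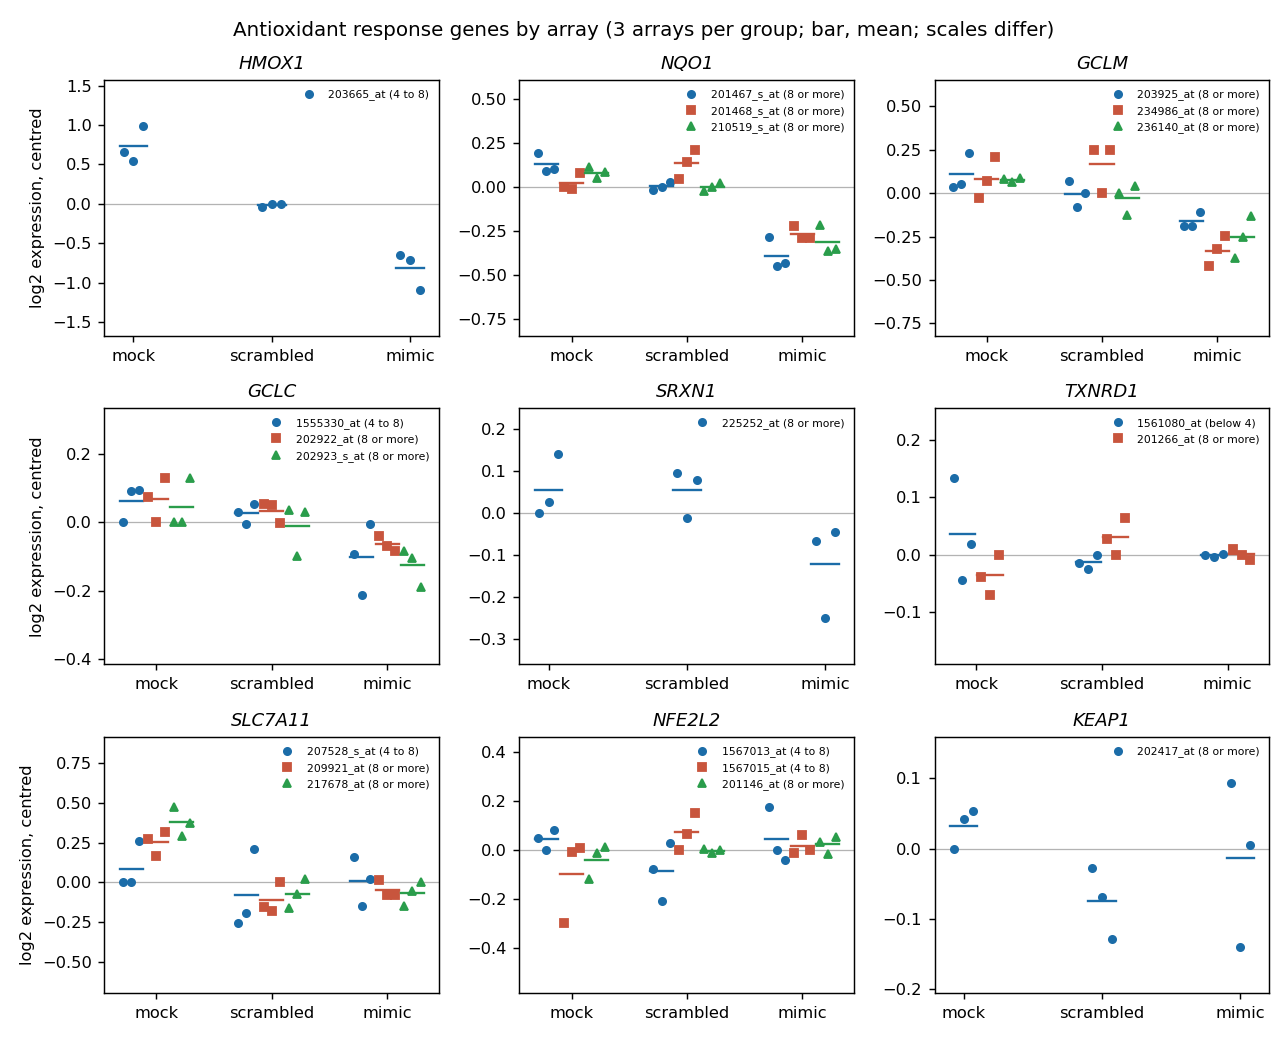
Centred log2 expression of each probe set of the 9 measured genes on the 9 arrays, with 1 panel per gene; points are arrays, colours and marker shapes are probe sets, horizontal bars are means of 3 arrays, the level class of each probe set stands in its panel, and the vertical scales differ. HMOX1 steps down from 0.73 in mock to -0.82 with the mimic, NQO1 and GCLM are lowest with the mimic, and SLC7A11 is high in mock alone on its probe sets of level 8 or more.

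Glutathione, the main thiol of the cell, is made in a first, rate-limiting step by glutamate-cysteine ligase, whose modifier subunit is GCLM and whose catalytic subunit is GCLC. GCLM was lower with the mimic than in either control. Its probe set 234986_at was at -0.02, 0.07 and 0.21 in mock, at 0.25, 0 and 0.25 with the scrambled control, and at -0.42, -0.32 and -0.25 with the mimic. Probe set 236140_at was at 0.08, 0.06 and 0.09 in mock, at 0, -0.12 and 0.04 with the scrambled control, and at -0.37, -0.25 and -0.13 with the mimic. Probe set 203925_at was at 0.04, 0.06 and 0.23 in mock, at 0.07, -0.08 and 0 with the scrambled control, and at -0.19, -0.19 and -0.11 with the mimic. The mimic arrays lie below all control arrays on each of the 3 probe sets. The gene value fell by 0.29 against the scrambled control (SE 0.07, limma adjusted p = 0.0114) and by 0.34 against mock (SE 0.07, limma adjusted p = 0.00432). Fitted singly, all 3 probe sets were called lower against mock, where 8.45% of all probe sets were, and 234986_at alone against the scrambled control, where 5.25% were. Mock and scrambled control differed by -0.04 (95% interval -0.19 to 0.10).

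GCLC did not pass the test in any comparison, though its gene value was on the same side as that of GCLM. With the mimic it differed by -0.11 from the scrambled control (95% interval -0.21 to 0.00, limma adjusted p = 0.191) and by -0.15 from mock (95% interval -0.26 to -0.04, limma adjusted p = 0.055). The intervals are for 1 gene and are not adjusted over genes, so one that leaves out 0 can stand beside an adjusted p above 0.05. Probe set 202922_at was at 0.07, 0 and 0.13 in mock, at 0.05, 0.05 and 0.00 with the scrambled control, and at -0.04, -0.07 and -0.08 with the mimic. The mimic arrays of that probe set lie below all others by a small margin. On 202923_s_at the mimic and scrambled arrays overlap. Against mock, GCLC passed in 3 alternatives, with limma adjusted p of 0.033 with the mean of all its probe sets, 0.019 with probe sets of level 8 or more alone, and 0.047 with a trended, robust variance.

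SLC7A11, the cystine-importing light chain of the xCT antiporter that supplies cysteine for glutathione, showed the opposite split of the groups. Probe set 217678_at was at 0.48, 0.29 and 0.37 in mock, at -0.16, -0.08 and 0.02 with the scrambled control, and at -0.15, -0.05 and 0 with the mimic. Probe set 209921_at was at 0.27, 0.16 and 0.32 in mock, at -0.16, -0.18 and 0 with the scrambled control, and at 0.01, -0.08 and -0.08 with the mimic. Mock lies above both transfected groups on these probe sets, and the transfected groups overlap. The gene value fell by 0.41 from mock to the scrambled control (SE 0.06, limma adjusted p = 0.00274) and by 0.37 from mock to the mimic (SE 0.06, limma adjusted p = 0.00109). Mimic and scrambled control differed by 0.03, with a 95% interval from -0.09 to 0.16. The dimmer probe set 207528_s_at, in the class of 4 to 8, overlapped between all groups.

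The heavy chain that carries SLC7A11 to the membrane, SLC3A2, was low with the scrambled control alone. Its single probe set was at 0.09, 0.01 and 0.14 in mock, at -0.34, -0.34 and -0.27 with the scrambled control, and at 0.11, 0 and -0.07 with the mimic. It fell by 0.40 from mock to the scrambled control (SE 0.06, limma adjusted p = 0.00331), and mimic differed from mock by -0.06 (limma adjusted p = 0.507). The partners of the antiporter therefore shared the low value of the scrambled control against mock, and with the mimic against mock SLC7A11 was called and SLC3A2 was not. The difference between the genes was not tested.

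TXNRD1, the cytosolic thioredoxin reductase, showed no difference past the test. Its probe set 201266_at, in the level class of 8 or more, ranged from -0.07 to 0 in mock, from 0 to 0.06 with the scrambled control and from -0.01 to 0.01 with the mimic. The mimic differed from the scrambled control by -0.03 (95% interval -0.12 to 0.06) and from mock by 0.04 (95% interval -0.06 to 0.13), and the groups overlap. A fall of the size of NQO1 or GCLM against the scrambled control lies outside that interval. SRXN1, sulfiredoxin, which repairs overoxidised peroxiredoxins, was at 0, 0.03 and 0.14 in mock, at 0.09, -0.01 and 0.08 with the scrambled control, and at -0.07, -0.25 and -0.05 with the mimic. Its mimic arrays are below all others, with replicate 2 the lowest. The difference of -0.17 from the scrambled control did not pass (SE 0.06, limma adjusted p = 0.105), nor did that of -0.18 from mock (SE 0.06, limma adjusted p = 0.087). When only probe sets of level 8 or more were tested, both passed, at limma adjusted p of 0.0472 and 0.0395.

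The 2 genes at the head of the pathway did not differ between groups past the test. NFE2L2, which encodes NRF2 itself, differed by 0.03 between mimic and scrambled control (95% interval -0.08 to 0.13, limma adjusted p = 0.779) on its brightest probe set 201146_at. That probe set ranged from -0.12 to 0.01 in mock, from -0.01 to 0.00 with the scrambled control and from -0.01 to 0.06 with the mimic, and the groups overlap. KEAP1, the NRF2 adaptor, was at 0, 0.04 and 0.05 in mock, at -0.03, -0.07 and -0.13 with the scrambled control, and at 0.09, -0.14 and 0.01 with the mimic. It differed by 0.06 between mimic and scrambled control (95% interval -0.07 to 0.20, limma adjusted p = 0.585) and by -0.05 between mimic and mock (95% interval -0.18 to 0.09, limma adjusted p = 0.672). The mimic arrays span the widest range of the 3 groups for KEAP1. These are mRNA values, and NRF2 is regulated mainly through its protein, which arrays do not measure.

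Among the 7 measured genes other than HMOX1 and NQO1, 1 was called lower and 0 higher between mimic and scrambled control, where 6.96% of all genes were called lower and 7.57% higher. Against mock, 2 were called lower and 0 higher with the mimic, beside 10.3% and 8.35% of all genes. With the scrambled control against mock, 1 was called lower and 0 higher, beside 5.22% and 2.68% of all genes. The arrays that guided the choice of genes enter each of these comparisons, so nothing is read from these counts. Their median log2 differences were -0.03, -0.15 and -0.04 for mimic against scrambled control, mimic against mock and scrambled control against mock. Over all genes the medians were -0.01, 0.01 and 0.02. Of the 16 probe sets of these 7 genes, 6 had all mimic arrays below all scrambled arrays, 9 had all mimic arrays below all mock arrays, and 4 had all scrambled arrays below all mock arrays. Such complete separation downward was found in 13.6%, 16.2% and 14.1% of all probe sets. Those probe sets share genes and arrays and are not replicates of each other. Mock replicate 3 was the highest of the mock arrays on 16 of all 20 probe sets of the 9 genes, against 38.9% of all probe sets, and leaving it out ended no call of GCLM or SLC7A11.

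**Figure D2:**
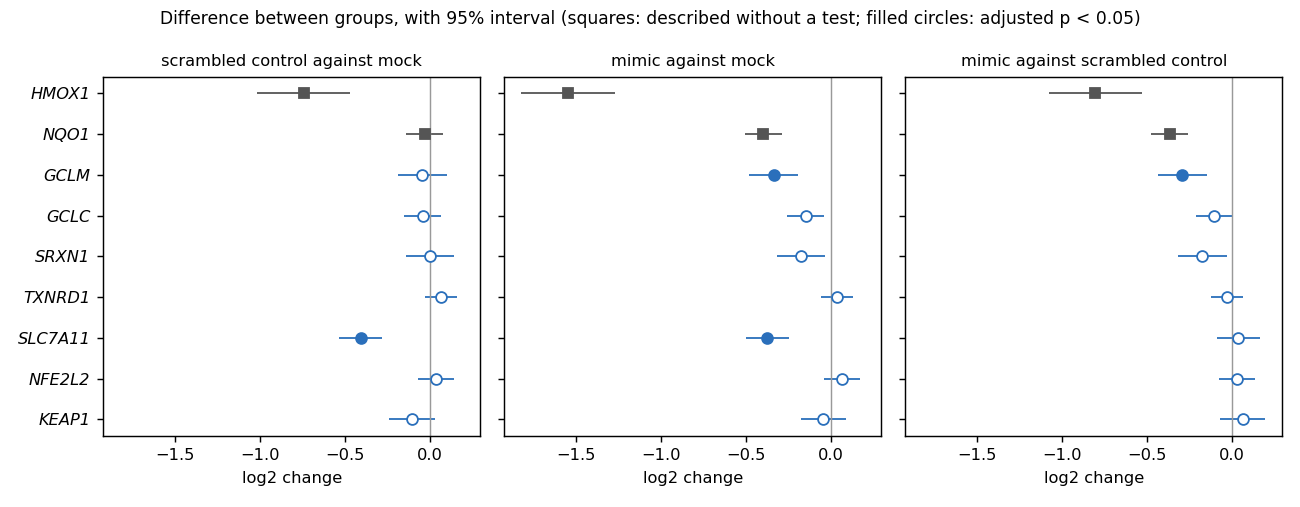
Log2 difference between groups of the 9 measured genes with its 95% interval, 3 panels for the 3 comparisons; squares are HMOX1 and NQO1, which are described without a test, filled circles have a limma adjusted p under 0.05 and open circles do not. For mimic against scrambled control GCLM is the filled circle, at -0.29, and SLC7A11 is at 0.03. In both comparisons with mock SLC7A11 is filled, at -0.37 and -0.41.

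MAFF and BACH1, both of which act at the DNA sites that NRF2 binds, were higher with the mimic on their brightest probe sets. MAFF, a small MAF protein without an activation domain of its own, rose with the mimic. Its probe set 36711_at was at -0.10, -0.16 and 0 in mock, at -0.21, -0.19 and 0.03 with the scrambled control, and at 0.54, 0.51 and 0.57 with the mimic. The mimic arrays lie far above both overlapping control groups. The rise was 0.66 against the scrambled control (SE 0.07, limma adjusted p = 8.28e-05) and 0.63 against mock (SE 0.07, limma adjusted p = 0.000116). The dimmer probe set 205193_at, in the class of 4 to 8, was not called, with differences of 0.17 and 0.09.

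BACH1, the heme-sensing repressor that holds down HMOX1 in unstressed cells, rose as well. Probe set 204194_at was at -0.13, -0.13 and 0 in mock, at -0.08, -0.09 and 0.09 with the scrambled control, and at 0.37, 0.48 and 0.39 with the mimic. All mimic arrays lie above all control arrays. The rise was 0.44 against the scrambled control (SE 0.06, limma adjusted p = 0.000699) and 0.50 against mock (SE 0.06, limma adjusted p = 0.000294), and mock and scrambled control differed by 0.06 (limma adjusted p = 0.588). BACH1 has 2 other probe sets in the class of 4 to 8, which were not called, and with the mean of all 3 the difference from the scrambled control was 0.17 and no longer passed (limma adjusted p = 0.073).

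Of 20 measured regulators and partners of NRF2, 3 were called higher and 2 lower with the mimic against the scrambled control, where 7.57% of all genes were called higher and 6.96% lower. Nothing is read from counts this small in 20 genes. The third gene to rise was CDKN1A, a cell cycle inhibitor that can shield NRF2 from KEAP1, by 0.33 (SE 0.05, limma adjusted p = 0.00154). FBXW11, a substrate receptor of the second ligase that degrades NRF2, fell by 0.42 (SE 0.06, limma adjusted p = 0.000772) and EP300, an acetyltransferase and coactivator, by 0.23 (SE 0.05, limma adjusted p = 0.0137). FBXW11 was at 0.04, 0.08 and 0.18 in mock, at 0.06, 0.01 and 0.11 with the scrambled control, and at -0.26, -0.37 and -0.45 with the mimic. Against mock, MAFF, BACH1 and NFE2L3 were called higher with the mimic and FBXW11 and EP300 lower, beside 8.35% and 10.3% of all genes. Between scrambled control and mock limma called 0 higher and 0 lower, beside 2.68% and 5.22% of all genes. The count lower against mock was 1 in place of 2 without mock replicate 1, 2 or 3 or without mimic replicate 2. CUL3, MAFG and NFE2L1 did not pass in any comparison, at 0.03, -0.05 and -0.06 for mimic against scrambled control. On the dimmer CUL3 probe set 201372_s_at, in the class of 4 to 8, the mean was 0.09 with the scrambled control and -0.18 with the mimic. For mimic against mock, MAFG (-0.19) passed with probe sets of level 8 or more (limma adjusted p = 0.0251) and without mimic replicate 1 (-0.25, limma adjusted p = 0.0113), and NFE2L1 (-0.13) with probe sets of level 8 or more (limma adjusted p = 0.0435). For mimic against scrambled control the median of the 20 genes was -0.01, as it was for all genes.

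**Figure D3:**
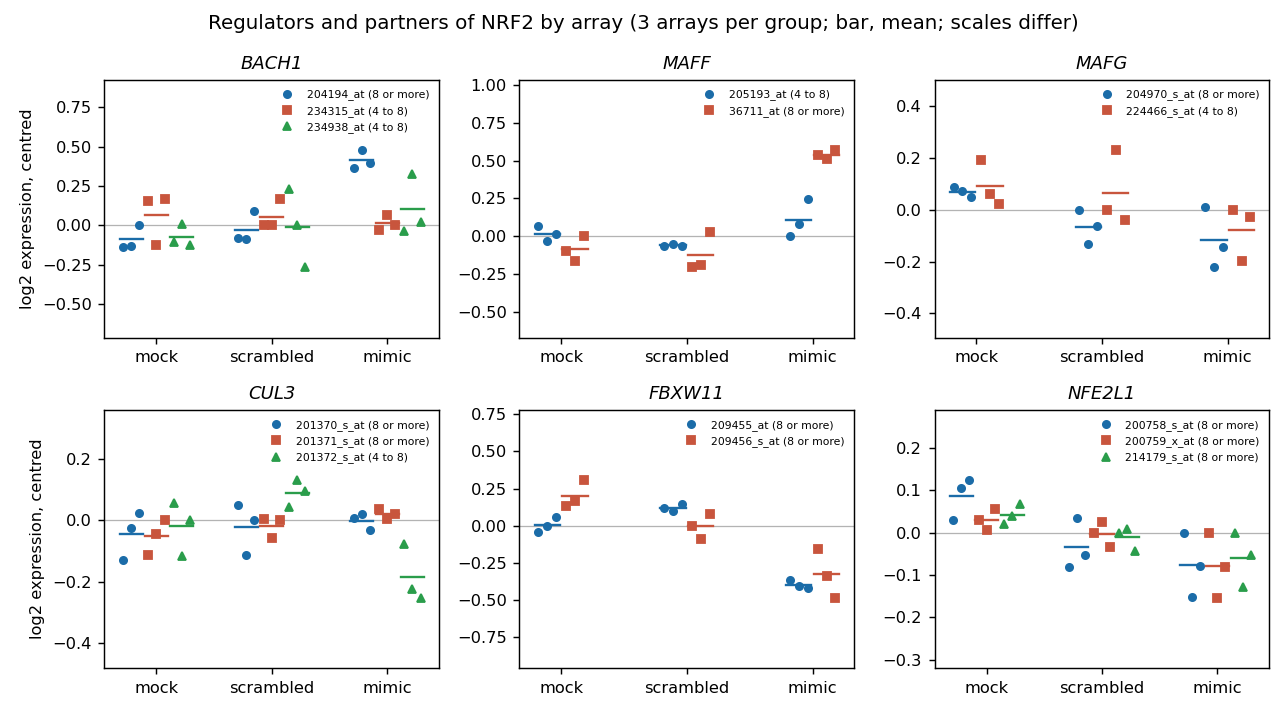
Centred log2 expression of 6 regulators and partners of NRF2 by array, every probe set shown; points are arrays, colours and shapes are probe sets, bars are means of 3 arrays, and the vertical scales differ. BACH1 204194_at and MAFF 36711_at are high on the 3 mimic arrays, their dimmer probe sets are not, and FBXW11 is low on the mimic arrays.

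The antioxidant response element was looked for in RefSeq promoter windows of 250 bases before to 50 after each start site (GRCh38.p14). The core TGACNNNGC was searched on both strands, and the looser TGANNNNGC, which includes every match of the first. There were 10 windows for 7 of the genes: GCLC, GCLM, KEAP1, NFE2L2, NQO1, SRXN1 and TXNRD1. TGACNNNGC was found in 4 of these 10 windows, belonging to 3 genes, and in 13.3% of 35116 windows of all genes, and TGANNNNGC in 41.8% of the latter. A window is shown for each of those 3 genes, because GCLM fell with the mimic whereas KEAP1 and TXNRD1 gave no call. Each sequence is the 125 bases before the start site on the gene's own strand, with capitals at the matches to TGACNNNGC or its reverse complement. GCLM is at chr1:93909431-93909555 on the minus strand, KEAP1 at chr19:10502772-10502896 on the minus strand, and TXNRD1 at chr12:104286907-104287031 on the plus strand.
GCLM: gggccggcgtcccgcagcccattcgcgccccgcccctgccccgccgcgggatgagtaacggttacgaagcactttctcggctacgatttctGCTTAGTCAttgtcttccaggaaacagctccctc
KEAP1: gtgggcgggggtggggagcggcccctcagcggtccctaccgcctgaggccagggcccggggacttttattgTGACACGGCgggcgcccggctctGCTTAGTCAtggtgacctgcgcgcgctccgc
TXNRD1: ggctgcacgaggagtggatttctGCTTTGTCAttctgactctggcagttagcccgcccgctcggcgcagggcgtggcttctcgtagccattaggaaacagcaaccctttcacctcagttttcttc
The same 9 letters, TGACTAAGC on the minus strand of the window, begin 34 bases before the start site in GCLM and 31 bases before it in KEAP1. Both windows thus carry this match, and their genes differed in whether the mimic values passed the test. The NQO1 window held 0 matches to TGACNNNGC and 1 to TGANNNNGC. Sequence farther than 250 bases before or 50 after a start site was not searched, so any element there is missed. HMOX1, SLC7A11 and FTH1 had no window in the reference used. The other TXNRD1 window with the core, not shown, held 2 matches to TGACNNNGC. A match describes letters in a window and does not show that a factor binds there.

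The 35 measured further NRF2 targets were chosen from general knowledge of the pathway, with earlier results of these data known. Their counts are therefore not independent evidence of a response of the pathway. Of these 35, 4 were called lower and 3 higher with the mimic against the scrambled control, beside 6.96% and 7.57% of all genes. The other 28 were not called, and the median was -0.03 (all genes, -0.01). ME1, the malic enzyme that yields NADPH, fell by 0.53 (SE 0.06, limma adjusted p = 9.46e-05) and UGDH, which makes UDP-glucuronate for conjugation, by 0.42 (SE 0.06, limma adjusted p = 0.000621). ME1 was at 0.00, 0.00 and 0.16 in mock, at 0.17, 0.08 and 0.18 with the scrambled control, and at -0.40, -0.39 and -0.36 with the mimic. UGDH was at 0.05, 0.13 and 0.12 in mock, at 0, 0.08 and -0.02 with the scrambled control, and at -0.51, -0.32 and -0.36 with the mimic. In both the mimic arrays lie below all control arrays. AKR1C3, an aldo-keto reductase of steroids and prostaglandins, fell by 0.31 (SE 0.05, limma adjusted p = 0.00313), a value that its near-identical relatives could share through cross-hybridisation.

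FTL, the light chain of ferritin, fell by 0.19 with the mimic against the scrambled control (SE 0.04, limma adjusted p = 0.0165) and by 0.25 against mock (SE 0.04, limma adjusted p = 0.0029). It was at 0.08, 0.05 and 0.07 in mock, at -0.01, 0.02 and 0.01 with the scrambled control, and at -0.12, -0.24 and -0.18 with the mimic. These gene values do not overlap between groups. On probe set 212788_x_at alone, scrambled replicate 2 (0.05) lies above mock replicate 2 (0.04). The FTL difference of scrambled control from mock, -0.06, was not called. Both its probe sets are of the kind (suffix _x_at) that can bind related sequences, and ferritin has many near-identical pseudogenes. Its call against the scrambled control ended without scrambled replicate 2, mimic replicate 2 or mimic replicate 3, at limma adjusted p of 0.0551, 0.055 and 0.0521.

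The 3 targets that rose against the scrambled control were the glutathione peroxidase GPX2 (0.34, SE 0.05, limma adjusted p = 0.00135), the efflux pump ABCC3 (0.35, SE 0.06, limma adjusted p = 0.00142) and the glutathione reductase GSR (0.23, SE 0.06, limma adjusted p = 0.0323). ABCC3 rested on 1 of its 5 probe sets, and with their mean the difference was 0.06 (limma adjusted p = 0.525). GSR was no longer called without scrambled replicate 1 or 2 or mimic replicate 1, 2 or 3, at limma adjusted p from 0.0515 to 0.106. TXN and BLVRB, a thioredoxin and a biliverdin reductase, were not called, at -0.08 and 0.05, and neither was MAFG.

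Against mock, 10 of the 35 targets were called lower and 2 higher with the mimic, beside 10.3% and 8.35% of all genes, and the median was -0.10 (all genes, 0.01). UGDH, ME1 and FTL had the smallest p-values among the 10, at -0.49, -0.44 and -0.25. SQSTM1, the autophagy receptor that binds KEAP1, fell by 0.27 (SE 0.05, limma adjusted p = 0.0044), but by 0.17 with the mean of all its probe sets, which did not pass (limma adjusted p = 0.0771). The calls of EPHX1, CBR3 and AKR1C3 ended when some single arrays were left out. For EPHX1 these were mock replicates 2 and 3 and mimic replicates 2 and 3 (limma adjusted p 0.0505 to 0.0934). For CBR3 these were mock replicate 1 and mimic replicates 2 and 3 (0.0603 to 0.0657), and for AKR1C3 mock replicate 3 and mimic replicate 2 (0.0645 and 0.0568).

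Between scrambled control and mock, 4 of the 35 targets were called lower and 0 higher, beside 5.22% and 2.68% of all genes, with a median of -0.06 (all genes, 0.02). EPHX1, the microsomal epoxide hydrolase, fell by 0.38 (SE 0.06, limma adjusted p = 0.00496) and NMRAL2P, a transcribed pseudogene, by 0.32 (SE 0.08, limma adjusted p = 0.0299). GSR and CBR3, a carbonyl reductase, fell by 0.24 each, at limma adjusted p of 0.0431 and 0.0494. The calls of GSR and CBR3 ended without any 1 of the 6 arrays, at limma adjusted p from 0.0501 to 0.118 and from 0.0773 to 0.156. That of NMRAL2P ended without any 1 of them but mock replicate 1, at 0.0515 to 0.104. The count lower was thus 2 without mock replicate 1 and 1 without each of the other 5 arrays.

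**Figure D4:**
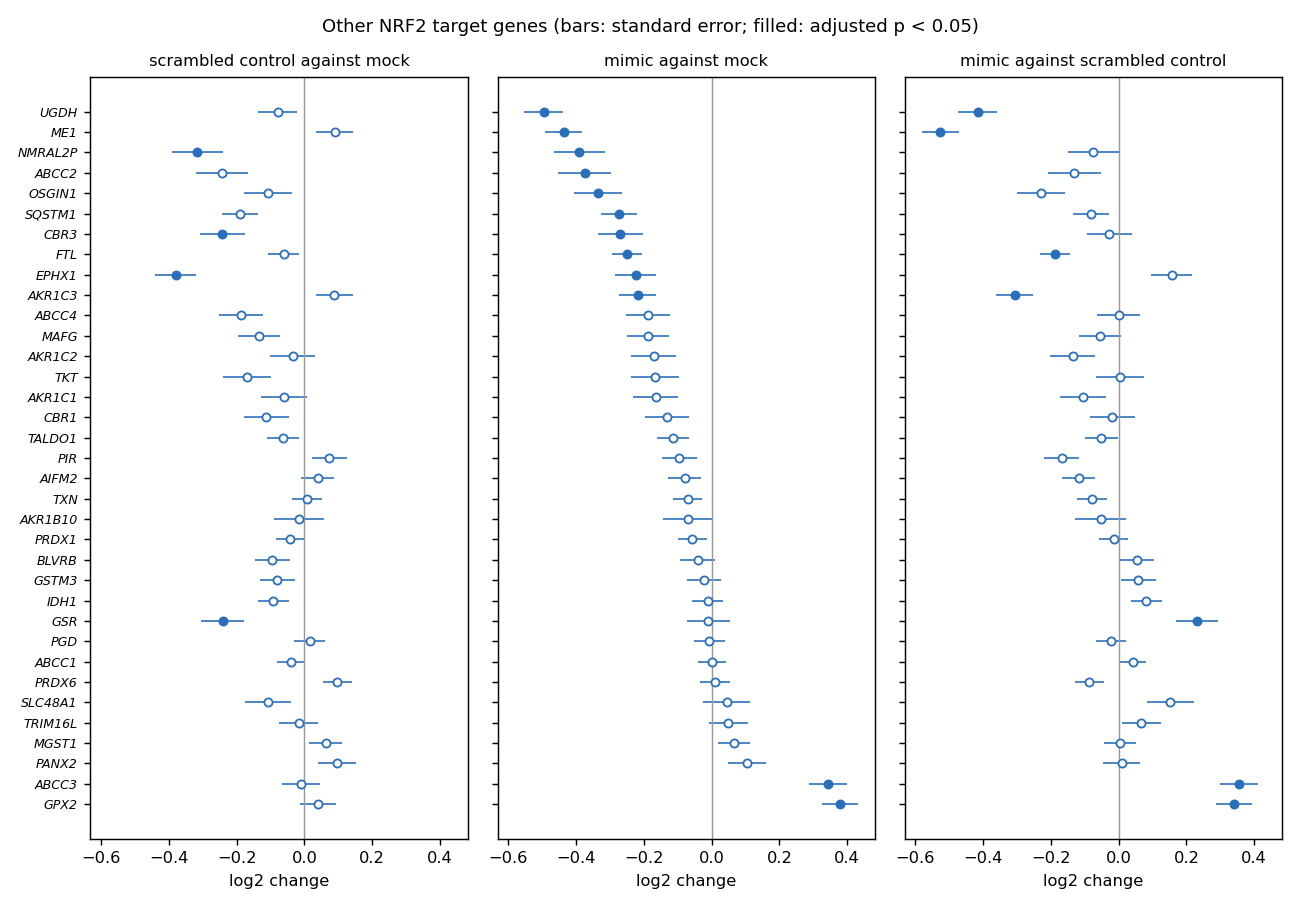
Log2 difference between groups of the 35 measured further NRF2 targets in the 3 comparisons, ordered by mimic against mock; bars are standard errors and filled points have a limma adjusted p under 0.05. Most points lie near 0, with ME1 and UGDH lowest and ABCC3 and GPX2 highest where the mimic is compared.

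Heme and iron handling, which HMOX1 feeds, was described over 28 measured genes. With the mimic against the scrambled control 5 were called higher and 3 lower, beside 7.57% and 6.96% of all genes, with a median of 0.00. SLC11A2, the iron importer DMT1, rose by 0.50 (SE 0.05, limma adjusted p = 5.71e-05) and SLC40A1, the iron exporter ferroportin, by 0.32 (SE 0.04, limma adjusted p = 0.000436). Both rose against mock too, by 0.60 and 0.39. With the mean of all its probe sets SLC11A2 was 0.29 and 0.38 higher, and both still passed. STEAP3, an iron reductase, was at 0.30, 0.25 and 0.38 in mock, at -0.40, -0.40 and -0.53 with the scrambled control, and at 0.30, -0.11 and 0 with the mimic. It fell by 0.75 from mock to the scrambled control (SE 0.09, limma adjusted p = 0.00152) and rose by 0.51 from the scrambled control to the mimic (SE 0.09, limma adjusted p = 0.00343). Among the 3 that fell was FLVCR2, a heme-linked transporter (-0.36, SE 0.05, limma adjusted p = 0.000345). Without scrambled replicate 2, mimic replicate 2 or mimic replicate 3 the count lower was 1.

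HMOX2, the constitutive heme oxygenase, rose by 0.17 from the scrambled control to the mimic (SE 0.04, limma adjusted p = 0.0271), the other direction from HMOX1. That call ended without scrambled replicate 1 or 3 or mimic replicate 1, 2 or 3, at limma adjusted p from 0.0502 to 0.0913. Between mimic and mock HMOX2 differed by 0.06, which was not called, and those groups overlap. The scrambled arrays lay below both, at -0.11 from mock, a difference that was not called either. The transferrin receptor TFRC and the biliverdin reductase BLVRA did not differ past the test, at -0.01 and 0.00. Against mock, 2 genes of this list were called higher and 5 lower with the mimic, beside 8.35% and 10.3% of all genes. With the scrambled control 0 were called higher and 5 lower, beside 2.68% and 5.22%. The count lower with the mimic was 3 without mock replicate 1, and that with the scrambled control was 3 without mock replicate 1, mock replicate 2 or scrambled replicate 3.

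NQO2, the close relative of NQO1 that uses another electron donor, fell with the mimic by 0.38 against the scrambled control (SE 0.07, limma adjusted p = 0.00321) and by 0.31 against mock (SE 0.07, limma adjusted p = 0.00902). Between scrambled control and mock it differed by 0.07 (limma adjusted p = 0.569). With the mean of all its probe sets the mimic differences of NQO2 were -0.24 and -0.18, and both still passed.

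Across the 9 arrays, the profile of HMOX1 was most like those of L3HYPDH (Pearson r = 0.993), VCAM1 (0.988), SERPINH1 (0.974), QKI (0.974) and TNFRSF1A (0.974), among 1419 genes whose values had an SD of at least 0.2. L3HYPDH was at 0.47, 0.46 and 0.71 in mock, at 0 on all 3 scrambled arrays, and at -0.49, -0.56 and -0.63 with the mimic. That is the descending order of groups seen for HMOX1. The profile of NQO1 was most like those of TYW1 (0.995), LGALS1 (0.992), PIP4K2A (0.992), ARL2BP (0.991) and AP1S2 (0.990), among 1420 genes. LGALS1, galectin-1, was at 0.12, 0 and 0.02 in mock, at -0.01, 0.06 and 0.07 with the scrambled control, and at -0.29, -0.42 and -0.40 with the mimic, so the mimic arrays lie below both control groups, as they do for NQO1. The 9 arrays fall in 3 groups, so these coefficients mostly reflect group means.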

How the data were processed

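The authors deposited 1 table of log2 expression for 54675 probe sets on 9 arrays. Their probe summary and scaling were not given in the sources used here. In the deposited log2 values the median over the 9 arrays is exactly 0 in 100.0% of probe sets, so levels were removed. The step between stored single-precision numbers doubles at 4 and 8 and gave a level class (27.65% at 8 or more, 53.72% from 4 to 8, 18.62% below 4). This recovered 98.4% of classes in 6000 simulated probe sets. Gene symbols came from the platform annotation of 2016: 41091 probe sets had 1 symbol, 1801 several and 11721 none, and 62 were controls.

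A gene's value is the mean of its probe sets in its highest class. Group means of all 9 arrays were fitted together with limma 3.58.1 (lmFit and eBayes, R 4.3.3), two-sided, with Benjamini-Hochberg adjustment over 19775 genes or 41091 probe sets, and calls under 0.05. Tested on simulated data over 19775 genes, with the comparison of mimic and scrambled control as the model, the fit recovered 34.3% of changes of 0.25, 84.5% of 0.5 and 99.7% of 1 log2 unit, with 29 false among 756 calls. Far fewer genes were changed in each simulated set than were called in the data, and their noise was independent. These rates are for that setting. Separate cultures are not named in the labels, so p-values reflect the spread among these samples alone, and it may be technical. The number of arrays limits the precision.

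Members and gene lists (further NRF2 targets, regulators and partners, glutathione, thioredoxin and superoxide, heme and iron, metal and oxidant response, ATF4 response, and markers of 3 cell groups) were chosen with earlier results of these data known. Named are all members, in each list up to 3 called genes with the smallest p per direction and comparison, a fixed set of 14 relatives and regulators, and the 5 genes most like HMOX1 and NQO1. Not every gene that this rule allows is described. Alternatives were other probe set rules, quantile or median scaling, probe sets of level 8 or more, a trended robust variance, only the groups compared, a replicate block, and leaving out each array.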

Additional observations from a re-analysis of the deposited data

How the results depend on the processing

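HMOX1 with the mimic ranged from -1.64 to -1.41 against mock over the alternatives run, and from -0.89 to -0.58 against the scrambled control, the latter bound under quantile normalization. NQO1 was -0.32 against the scrambled control under quantile normalization. With its probe set of largest spread it was -0.52 (mimic against mock) and -0.12 (scrambled control against mock). With probe sets of level 8 or more HMOX1 has no value. The genes called beside HMOX1 and NQO1 then numbered 2 in place of 1 for mimic against scrambled control. For mimic against mock they numbered 4 in place of 2. That fit was run again on fewer genes. The added calls were SRXN1 in both comparisons and GCLC against mock. Their log2 differences were the same as in the main fit, at -0.17 and -0.18 for SRXN1 and -0.15 for GCLC. Which part of the rerun fit, its variance estimate or its adjustment, added the calls was not tested. CUL3 turned to -0.27 (limma adjusted p = 0.026) for mimic against scrambled control with its probe set of largest spread. That is 201372_s_at, in the class of 4 to 8, whereas the main value of 0.03 is from its probe sets of level 8 or more. Why the CUL3 probe sets differ was not tested. Leaving out 1 array gave 763 to 991 genes and 874 to 1369 probe sets called between scrambled control and mock, in place of 1563 and 2357, with fewer samples. The replicate numbers do not pair the arrays: deviations of same-numbered arrays correlated between -0.158 and 0.117, and not every array correlated best with its own number. With a replicate block 1557 probe sets were called between scrambled control and mock, and 1 of the 7 genes tested beside HMOX1 and NQO1 was called with the mimic against the scrambled control, as without it. The block ended the calls of HMOX2 (mimic against scrambled control, limma adjusted p = 0.06) and GSR (scrambled control against mock, 0.0518), and MAFG (mimic against mock, 0.0444) and OSGIN1 (mimic against scrambled control, 0.0468) passed with it. Over 144 gene results and 1998 alternatives, 56 lost a call, 26 gained one and 1 reversed direction and was called. Another 4, untested values of HMOX1 or NQO1, moved by more than the spread between replicates. The other 1911 stayed on the same side of the threshold or, for HMOX1 and NQO1, moved by less than that spread. Values not called in either fit could change sign within these 1911, as TXN did for mimic against mock. Signal over background is not known, so a low level class does not show that a gene was undetected.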

Other observations

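The ATF4 response to amino acid and endoplasmic reticulum stress is also known to drive SLC7A11, which is not in its list. Of its 24 measured genes, 12 were called lower and 0 higher between scrambled control and mock, beside 5.22% and 2.68% of all genes (median -0.23, against 0.02 over all genes). The other 12 were not called. With the mimic against the same scrambled arrays 12 were called higher and 2 lower (median 0.16), beside 7.57% and 6.96% of all genes. With the mimic against mock 3 were called higher and 7 lower (median -0.07), beside 8.35% and 10.3%. When 1 array was left out, the counts were 8 to 12 lower for scrambled control against mock and 8 to 10 higher for mimic against scrambled control. For mimic against mock they were 2 to 3 higher and 5 to 8 lower. GDF15, a stress cytokine, was at 0.44, 0.50 and 0.49 in mock, at -0.40, -0.44 and -0.32 with the scrambled control, and at 0.04, 0 and -0.15 with the mimic. These are values of its brightest of 3 probe sets. With the mean of all 3 the difference of scrambled control from mock was -0.26 in place of -0.86, and that of mimic from scrambled control was 0.08 and no longer passed (limma adjusted p = 0.292). DNAJB1, a heat shock co-chaperone of another list, was at -0.02, 0.12 and 0.17, then -0.43, -0.51 and -0.48, then 0.09, 0 and 0 in that order. SLC7A11 did not share the higher value with the mimic against the scrambled control. The comparisons share the scrambled arrays, so low values there give differences of opposite sign in both.

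For mimic against scrambled control, where 7.57% of all genes were called higher and 6.96% lower, the other lists gave these counts. In all, 7 of 31 glutathione genes were called higher and 1 lower, 3 of 24 thioredoxin, peroxiredoxin and superoxide genes higher and 5 lower, and 4 of 14 genes of the metal and oxidant response higher and 0 lower. Without scrambled replicate 2 or 3 or mimic replicate 1 or 3 the 5 were 3, and without scrambled replicate 1 or 3 or mimic replicate 1 the 3 higher were 1. For the metal and oxidant response the 4 were 3 whichever of the compared arrays was left out, and 2 with the probe set of largest spread. The 7 glutathione genes were 5 to 7 when 1 array was left out. Of the marker lists, 0 of 11 endothelial and fibroblast genes were called, 1 of 10 leukocyte genes was called lower (0 without scrambled replicate 1), and 5 of 13 endometrial and epithelial genes were called higher and 2 lower. For the glutathione genes against mock, 3 were called higher and 4 lower with the mimic, beside 8.35% and 10.3% of all genes. With the scrambled control against mock, 1 of them was called higher and 4 lower, beside 2.68% and 5.22%. Leaving out 1 array gave 1 to 3 lower with the mimic. With the scrambled control it gave 2 to 3 lower and 0 to 1 higher.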
